A study of Mus musculus with 6 samples.

Results

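The genes of glycolysis and of the response to low oxygen were examined as a set of 40 named mouse genes. They were taken by gene symbol from a table of 55573 genes. They comprised 17 core glycolytic enzymes, 3 regulatory kinases, 4 glucose and lactate transporters, 4 subunits and hydroxylases of the hypoxia-inducible factor (HIF) system, and 12 genes that respond to HIF. The symbol Aldoa named 2 rows, so 41 rows carried these symbols. The Aldoa gene with the usual identifier (ENSMUSG00000030695.16) was used, and the other row (ENSMUSG00000114515.2) held only 5 to 35 expected counts per library. The libraries were made from LSK cells, the lineage-negative, Sca-1-positive and c-Kit-positive bone marrow fraction in which blood stem cells and early multipotent progenitors are concentrated. There were 3 wild-type libraries (Etv6+/+) and 3 libraries heterozygous for the R355X allele of Etv6 (Etv6 R355X/+), all from C57BL/6J mice aged 3 months. In the sample labels the mutant genotype is written Etv6+/-, whereas R355X comes from the series description. The product of Etv6 is an ETS-family factor that represses transcription.

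Glycolysis splits glucose into pyruvate in the cytosol, and lactate dehydrogenase turns pyruvate into lactate. When oxygen is low, the prolyl hydroxylases that mark HIF alpha subunits for destruction work less, and HIF raises the transcription of glycolytic enzymes, glucose carriers and genes such as Ndrg1 and Ak4. Hematopoietic stem cells live in a marrow with little oxygen and are known for relying on glycolysis more than their progeny do.

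HIF binds a short core, ACGTG or GCGTG, which was searched on both strands of the bases upstream of each start site in RefSeq's promoter table (GRCm38.p6). ACGTG lies within the E-box CACGTG, which other factors bind. Entries were found for 36 of the 40 genes, and Ndrg1, Bnip3l, Epas1 and Slc2a3 had none in this table. Of these 36 windows of 250 bases, 28 (77.8%) held the core, against 42.1% of all 20595 windows of that length. The 36 windows had a mean GC content of 62.1%, against 54.5% in all windows. The core stood in 8 of 10 windows of HIF-responsive genes and in 11 of 17 windows of core enzymes. CACGTG stood in 5 of 36 windows (13.9%, against 6.41% of all). The ETS-type motif CCGGAAGT stood in 0 of 36, against 3.60% of all. A match is only a description of these letters. The 3 printed sequences show where the core lies in the HIF-responsive gene with the largest fall, in the core enzyme with the smallest p-value, and in Pgk1, a core enzyme known as a HIF target. Capitals mark the core in either direction (ACGTG or GCGTG, and their reverse complements CACGT and CACGC). They lie at chr4:101419039-101419276 for Ak4, chr19:41911621-41911870 for Pgam1 and chrX:106186850-106187099 for Pgk1, all on the plus strand. The Ak4 window was cut to 238 bases, where its GENCODE gene begins.
Ak4: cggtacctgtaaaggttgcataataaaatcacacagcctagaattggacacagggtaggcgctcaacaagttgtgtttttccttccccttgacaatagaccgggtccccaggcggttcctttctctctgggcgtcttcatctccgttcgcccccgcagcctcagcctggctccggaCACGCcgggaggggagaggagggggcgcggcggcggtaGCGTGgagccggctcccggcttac
Pgam1: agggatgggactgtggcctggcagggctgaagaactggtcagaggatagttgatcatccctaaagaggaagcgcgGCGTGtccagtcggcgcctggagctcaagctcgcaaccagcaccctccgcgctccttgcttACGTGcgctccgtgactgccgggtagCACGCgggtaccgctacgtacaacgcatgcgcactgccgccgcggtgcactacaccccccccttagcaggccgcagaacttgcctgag
Pgk1: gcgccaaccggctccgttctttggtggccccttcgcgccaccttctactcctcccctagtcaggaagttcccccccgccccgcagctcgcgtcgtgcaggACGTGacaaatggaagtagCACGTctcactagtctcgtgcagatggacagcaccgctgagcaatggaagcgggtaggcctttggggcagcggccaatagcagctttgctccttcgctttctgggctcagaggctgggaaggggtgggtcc
The Ak4 window held GCGTG at 2 places, the Pgam1 window held it at 2 places and ACGTG at 1, and the Pgk1 window held ACGTG at 2.

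Library totals lay between 45.2 M and 92.2 M expected counts, and mutant replicate 1 was the deepest. Nuclear-encoded ribosomal RNA took 6.30% to 8.61% of the counts, again highest in mutant replicate 1. Etv6 measured 454, 419 and 400 CPM (expected counts scaled to a common library total) in wild type against 305, 341 and 386 CPM in the mutant, so the genotypes did not overlap. Its log2 fold change was -0.30 (SE 0.086), which missed the threshold of 0.05 (edgeR quasi-likelihood test, Benjamini-Hochberg adjusted p = 0.245). The sorting markers were present in all 6 libraries, with Kit at 351 to 451 CPM and Ly6a, the gene of Sca-1, at 71.7 to 93.5 CPM. Markers of other blood cells were present too. The summed level of 9 B cell genes was 1435 to 2248 CPM in wild type against 2318 to 2716 CPM in the mutant, with Cd79a at 10.2 to 34.6 CPM. Ighm (1.35-fold) made up most of this sum, and other genes of the list moved more, such as Pax5 (2.15-fold) and Vpreb1 (2.51-fold). All 9 lay above 0, and 8 had an unadjusted p under 0.05 in edgeR. The summed level of 7 mast cell and basophil genes was 105 to 109 CPM in wild type against 123 to 135 CPM in the mutant. Gata2, which overlapped (1.05-fold), was its largest part. All 7 lay above 0, 5 had an unadjusted p under 0.05 in edgeR, and Fcer1a was called higher, at 4.97-fold. These sums did not overlap between genotypes, none of their genes was at 0 in all libraries, and their part in the results was not tested. The sum of 15 long-term stem cell genes, mostly Hlf, overlapped, at 628 to 863 CPM in wild type against 647 to 756 CPM in the mutant, but single genes of that list moved with genotype. Of the 15, 10 lay below 0 and 5 had an unadjusted p under 0.05 (4 lower). Procr was at 74.3% of wild type and lower in every mutant library, and Fgd5 was called higher, at 2.49-fold. Of 13 erythroid genes, 7 lay below 0, but Hbb-bt (4.34-fold) and Hbb-bs (2.39-fold) were called higher. Of 8 T and natural killer cell genes, 5 lay above 0 and 3 below, and Klrb1c (3.54-fold) was called higher. The part of these lists in the results was not tested. In such bulk samples, fewer cells of a type and less RNA per cell cannot be told apart. Whether each replicate is an animal of its own is not stated in the labels, so the p-values reflect variation among these samples only, and that variation may be technical.

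Of the 40 genes, 2 differed between genotypes past the threshold. Ak4, a mitochondrial adenylate kinase, fell to 59.0% of its wild-type level, and Ndrg1, a stress and differentiation gene induced by low oxygen, fell to 67.5%. All 40 genes passed the filter on low counts. Ndrg1 and Ak4 were called at an adjusted p under 0.05, against 55 of 20646 tested genes (0.266%, and 0.0775% for lower genes alone). The choice of genes names both, with earlier results of these data known, so these shares do not measure an excess of calls. Of the other 38 genes, 0 were called. None of the 17 core enzymes was called by edgeR's quasi-likelihood test. Of these enzymes, 2 had an unadjusted p under 0.05, DESeq2 called 1 (Pgam1) and limma-voom called 0. Most of the 40 genes lay slightly below 0: the log2 fold change was negative in 31 of 40 (77.5%), against 49.4% of all tested genes and 53.3% of tested genes with at least 10 CPM on average. Their median was -0.080, against 0.0019 for all tested genes. An unadjusted p under 0.05 was found for 7 of 40 (6 lower), against 10.6% of all tested genes (4.80% lower). The number of negative values depended on the libraries, since 25 of 40 were negative without wild-type replicate 3 and 35 without mutant replicate 1. The genotypes did not overlap in 9 of 40 genes (22.5%), a share near the 16.3% of all tested genes and the 18.4% of those with at least 10 CPM. Of these, 7 were lower in the mutant, against 7.84% of all tested genes (9.89% of those with at least 10 CPM), and 2 were higher, against 8.45%.

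**Figure D1:**
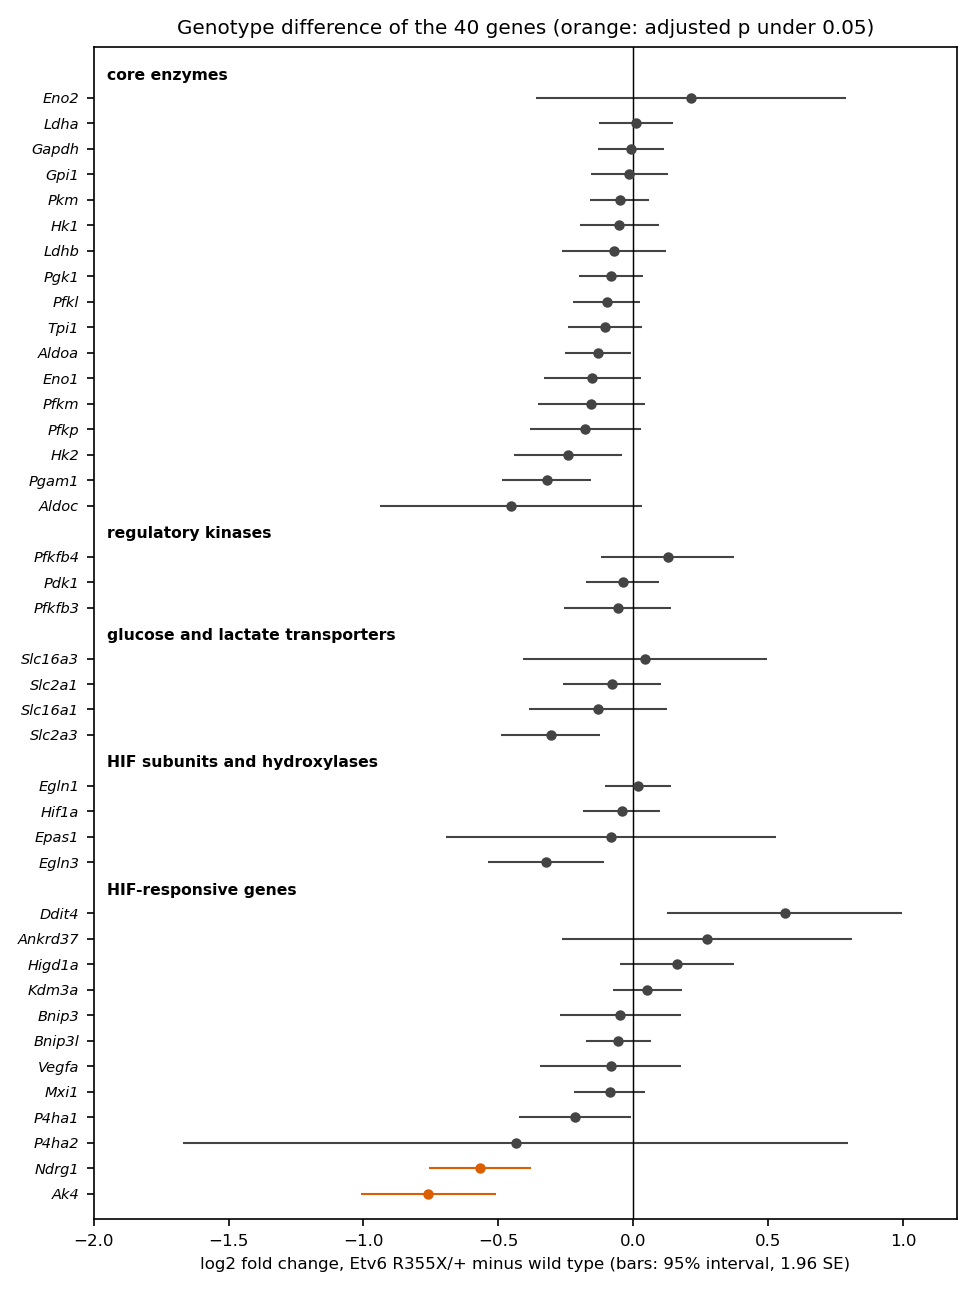
Log2 fold change of each of the 40 genes, Etv6 R355X/+ minus wild type, by role, on a linear axis of log2 units. Points are fitted values, bars are approximate 95% intervals (from the SE), and orange marks an adjusted p under 0.05. Ak4 (-0.76) and Ndrg1 (-0.57) are the only genes in orange, and most other points lie just left of 0.

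Ndrg1 (ENSMUSG00000005125.13) lies on chromosome 15 from 66929318 to 66969640 on the minus strand of mm10. It measured 97.2, 91.9 and 74.5 CPM in wild-type replicates 1, 2 and 3 and 55.4, 62.8 and 59.8 CPM in mutant replicates 1, 2 and 3. Every mutant library lay below every wild-type library, and wild-type replicate 3 stood nearest to the mutant. The means were 87.9 ± 11.9 and 59.3 ± 3.69 CPM (SD, n = 3), which put the mutant at 67.5% of wild type (approximate 95% interval 59.2% to 76.8%). The log2 fold change was -0.57 (SE 0.096), with a Benjamini-Hochberg adjusted p of 0.0441 from edgeR's quasi-likelihood model. Exons of 2 annotated RNAs overlap it on the opposite strand, at 0.119 and 0 CPM. Limma-voom did not call it (adjusted p = 0.0618). Without wild-type replicate 3 it remained, with an adjusted p of 0.00674 in edgeR, and without any other single library it was lost, with adjusted p from 0.0902 to 0.224. The log2 fold change stayed between -0.67 and -0.49 across these 6 fits.

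Ak4 (ENSMUSG00000028527.18) lies on chromosome 4 from 101419277 to 101466995 on the plus strand. Its levels were 24.3, 26.6 and 25.2 CPM in wild type against 12.1, 16.2 and 16.7 CPM in the mutant. The wild-type libraries lay close together, and mutant replicate 1 was the lowest. Means were 25.4 ± 1.17 and 15.0 ± 2.55 CPM (SD, n = 3), and the mutant level was 59.0% of wild type (approximate 95% interval 49.7% to 70.2%). The log2 fold change was -0.76 (SE 0.127), with a Benjamini-Hochberg adjusted p of 0.0437 from edgeR's quasi-likelihood model. No annotated exon of another gene overlaps it. Without mutant replicate 3 the call remained (adjusted p = 0.0392 in edgeR), and without any other single library it was lost, with adjusted p from 0.0629 to 0.222. The log2 fold change ran from -0.85 to -0.62 in these fits, nearest to 0 without mutant replicate 1.

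**Figure D2:**
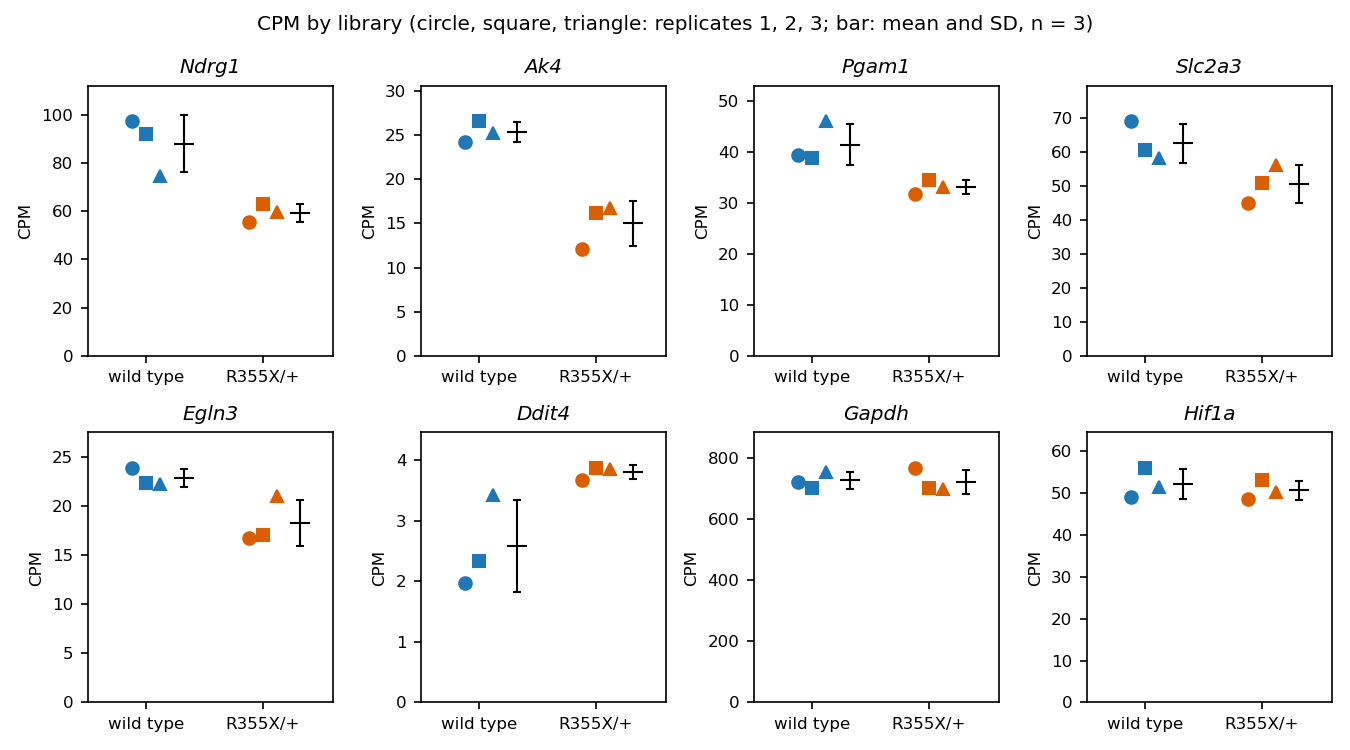
Levels of 8 genes in CPM on linear axes that start at 0, with 1 point per library (circle, square and triangle for replicates 1, 2 and 3) and the mean and SD of each genotype (n = 3). Ndrg1, Ak4, Pgam1, Slc2a3 and Egln3 are lower in every mutant library, Ddit4 is higher in every mutant library, and Gapdh and Hif1a overlap.

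Among the other 10 HIF-responsive genes, 6 lay below 0 and 4 above, with a median of -0.052, and edgeR's quasi-likelihood test called none of them. The unadjusted p was under 0.05 in 1 of these 10, and both DESeq2 and limma-voom called 0. That gene was Ddit4, which encodes an inhibitor of mTORC1 signalling. Ddit4 measured 1.97, 2.33 and 3.43 CPM in wild type against 3.67, 3.87 and 3.85 CPM in the mutant. It was the opposite of Ndrg1 and Ak4, higher in each mutant library, but at a low level. Its log2 fold change of 0.56 (SE 0.222) missed the threshold (edgeR quasi-likelihood test, Benjamini-Hochberg adjusted p = 0.417). Higd1a, a mitochondrial protein gene, also did not overlap and was higher in the mutant, with means of 15.1 ± 1.10 and 16.9 ± 1.21 CPM (log2 fold change 0.16, SE 0.108).

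The other HIF-responsive genes overlapped between genotypes. Bnip3 and Bnip3l, which encode mitophagy receptors, had log2 fold changes of -0.05 and -0.06, with mutant means of 12.2 ± 0.887 and 91.8 ± 5.09 CPM (SD, n = 3). P4ha1, a collagen prolyl hydroxylase subunit, measured 20.05, 21.7 and 18.5 CPM in wild type against 15.9, 18.8 and 17.2 CPM in the mutant, with a log2 fold change of -0.22 (SE 0.106). Its relative P4ha2 was scarcely detected, at 0.0891 to 0.652 CPM, and its interval ran from 31.4% to 174% of wild type. Vegfa, the vascular growth factor, and Mxi1, a MYC antagonist, had log2 fold changes of -0.08 (SE 0.133) and -0.09 (SE 0.067). Kdm3a, a histone demethylase, was at 0.05 (SE 0.066), with mutant libraries at 60.6, 61.1 and 60.8 CPM inside the wild-type range of 55.9 to 63.1 CPM. Ankrd37, an ankyrin repeat gene, measured 1.19 to 2.13 CPM (log2 fold change 0.27, SE 0.274). It shares 57 exon bases with Ufsp2 on the opposite strand, which averaged 31.8 CPM, so its counts are uncertain without strand information.

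The core enzymes lay near 0. Of 17, 15 had a negative and 2 a positive log2 fold change, with a median of -0.099 and a range from -0.45 to 0.21. At the hexokinase step, Hk1 measured 56.7 to 66.2 CPM in wild type against 56.3 to 59.1 CPM in the mutant. Hk2, the hexokinase that HIF induces, measured 38.6, 49.1 and 47.1 CPM in wild type against 34.0, 39.4 and 40.6 CPM in the mutant. The Hk2 ranges overlapped, since wild-type replicate 1 lay among the mutant libraries, and its log2 fold change was -0.24 (SE 0.103, Benjamini-Hochberg adjusted p = 0.441 in edgeR). Gpi1, which turns glucose 6-phosphate into fructose 6-phosphate, was at 99.0% of wild type (interval 89.8% to 109%).

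The phosphofructokinases carry out the committed step of glycolysis. Pfkl did not overlap between genotypes but differed little, with 50.1, 52.7 and 48.9 CPM in wild type against 46.6, 48.3 and 46.8 CPM in the mutant. Its log2 fold change was -0.10 (SE 0.064). Pfkm and Pfkp overlapped, with log2 fold changes of -0.15 (SE 0.102) and -0.18 (SE 0.105). Pfkp has uncertain counts, because it shares 748 exon bases with Pitrm1 (62.7 CPM) on the opposite strand. Pfkm shares only 18 with Senp1 (135 CPM) on the opposite strand. It also shares 341 on the same strand with a further annotated RNA, which took reads equal to 5.74% of the Pfkm level. Aldolase then splits the sugar into a pair of triose phosphates. Aldoa measured 129, 136 and 138 CPM in wild type against 124, 128 and 115 CPM in the mutant, without overlap but with a log2 fold change of only -0.13 (SE 0.063, Benjamini-Hochberg adjusted p = 0.505 in edgeR). Aldoc, a minor aldolase here, had means of 4.80 ± 1.26 and 3.52 ± 0.922 CPM (SD, n = 3), and a log2 fold change of -0.45 (SE 0.248). Without wild-type replicate 2 this value was -0.22, and without mutant replicate 1 it was -0.25.

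The later enzymes turn the triose phosphates into pyruvate. Gapdh, which oxidises glyceraldehyde 3-phosphate, measured 720, 701 and 754 CPM in wild type against 767, 700 and 696 CPM in the mutant. Its mutant libraries held both the highest and the lowest value, and the mutant level was 99.4% of wild type (interval 91.2% to 108%). Tpi1, which interconverts the triose phosphates, and Pgk1, the first ATP-forming kinase of glycolysis, had log2 fold changes of -0.10 (SE 0.069) and -0.08 (SE 0.061). Phosphoglycerate mutase, Pgam1, measured 39.3, 38.8 and 46.0 CPM in wild type against 31.7, 34.4 and 33.1 CPM in the mutant. Each mutant library lay below each wild-type library, and the mutant level was 80.0% of wild type (interval 71.4% to 89.7%). Its log2 fold change of -0.32 (SE 0.084) missed the threshold in edgeR (Benjamini-Hochberg adjusted p = 0.209), and DESeq2 called it with an adjusted p of 0.0470. Pgam1 and Pgk1 have pseudogene rows in the table that took reads equal to 21.6% and 13.7% of their own level, so how reads were shared out can move both.

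Downstream, Eno1, the main enolase of these cells, measured 119, 122 and 149 CPM in wild type against 117, 126 and 108 CPM in the mutant, and its ranges overlapped (log2 fold change -0.15, SE 0.092). Eno2 was near 1 CPM, with means of 1.11 ± 0.288 and 1.29 ± 0.229 CPM (SD, n = 3). Pkm, the pyruvate kinase gene, was at 96.5% of wild type (interval 89.5% to 104%). It shares 767 exon bases on the same strand with a further annotated transcript that took reads equal to 10.8% of its level. Ldha, the lactate dehydrogenase subunit that HIF induces, measured 318, 338 and 354 CPM in wild type against 362, 344 and 311 CPM in the mutant. The Ldha ranges overlapped fully, and its interval ran from 91.5% to 111% of wild type. Ldhb was at 95.2% of wild type (interval 83.2% to 109%).

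Regulatory kinases set the flow through the pathway and into the mitochondria. Pfkfb3 and Pfkfb4, which make the activator of phosphofructokinase, had log2 fold changes of -0.06 (SE 0.101) and 0.13 (SE 0.125). Pdk1, which inhibits pyruvate dehydrogenase and is a HIF target, measured 82.7 to 94.3 CPM in wild type against 84.3 to 91.2 CPM in the mutant. All 3 overlapped between genotypes, and edgeR called none, with no unadjusted p under 0.05. DESeq2 and limma-voom called 0 as well.

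Of the 4 transporters, Slc2a3, a high-affinity glucose carrier (GLUT3), stood apart. It measured 69.1, 60.5 and 58.2 CPM in wild type against 44.9, 51.0 and 56.2 CPM in the mutant. The genotypes did not overlap, but mutant replicate 3 lay close to wild-type replicate 3. Its log2 fold change was -0.31 (SE 0.094), short of the threshold in edgeR (Benjamini-Hochberg adjusted p = 0.280, unadjusted p = 0.00777). Slc2a1, the carrier GLUT1, was at 94.7% of wild type (interval 83.5% to 107%). Slc16a1, which carries lactate and pyruvate, measured 45.9, 50.9 and 70.1 CPM in wild type against 53.1, 50.2 and 49.1 CPM in the mutant. Wild-type replicate 3 alone was high, and without it the log2 fold change turned from -0.13 to 0.07. Slc16a3, the lactate exporter that HIF induces, was low at 2.17 to 3.49 CPM. EdgeR called none of the 4, with 1 unadjusted p under 0.05. The counts of DESeq2 and limma-voom were also 0.

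The levels of Hif1a and Epas1, which encode HIF alpha subunits, overlapped between genotypes. Hif1a, the alpha subunit found in most cells, measured 49.0, 56.0 and 51.4 CPM in wild type against 48.7, 53.0 and 50.1 CPM in the mutant. The ranges overlapped, and the mutant level was 97.1% of wild type (interval 88.0% to 107%). Epas1, which encodes HIF-2 alpha, was below about 1 CPM in both genotypes (0.859 ± 0.0517 and 0.806 ± 0.198 CPM, SD, n = 3). HIF activity is set mainly by protein stability, which these data did not measure. Egln1, the main oxygen-sensing prolyl hydroxylase, was at 101.2% of wild type (interval 93.0% to 110%). Egln3, a prolyl hydroxylase that HIF itself induces, measured 23.9, 22.3 and 22.2 CPM in wild type against 16.8, 17.03 and 20.99 CPM in the mutant. Every mutant library was lower, with mutant replicate 3 nearest to wild type, and the log2 fold change was -0.32 (SE 0.109, Benjamini-Hochberg adjusted p = 0.332 in edgeR). DESeq2 and limma-voom called 0 of these 4 genes, and only Egln3 had an unadjusted p under 0.05.

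The core enzymes and the HIF-responsive genes were then set side by side. The median size of the log2 fold change, without its sign, was 0.104 for the 17 core enzymes and 0.189 for the 12 HIF-responsive genes. It was 0.139 for all tested genes, which include many noisy genes of low count (median SE 0.163). For tested genes with at least 10 CPM on average it was 0.083 (median SE 0.090), below both groups. The value of the HIF-responsive genes leaned on Ndrg1 and Ak4, which the choice of genes names, and without them the other 10 had a median size of 0.124. The medians with sign were alike, -0.099 for core enzymes and -0.070 for HIF-responsive genes. The range of HIF-responsive genes, from -0.76 to 0.56, reached further in both directions than that of the core enzymes. No test of this difference between the groups was made, and genes of a pathway are not independent of each other. The precision differed too: core enzymes had a median SE of 0.074 and HIF-responsive genes of 0.111 (log2). Within single libraries, the core enzymes moved with the replicate as well as with the genotype. Their median difference from the wild-type mean was -0.07, 0.02 and 0.06 in wild-type replicates 1, 2 and 3 and -0.10, -0.04 and -0.14 in the mutant (log2 of CPM + 0.5). Wild-type replicate 3 held the highest value of 9 of the 17 enzymes, and mutant replicates 1 and 3 held the lowest of 7 and 8. The summed level of 11 neutrophil and granulocyte progenitor genes was 6120, 5912 and 8917 CPM in wild type. In the mutant it was 6338, 6283 and 4589 CPM. For 13 erythroid genes the sum was 497, 491 and 773 CPM against 715, 688 and 485 CPM. Both sums overlapped between genotypes, and were highest in wild-type replicate 3 and lowest in mutant replicate 3. Their part in the enzyme values was not tested.

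**Figure D3:**
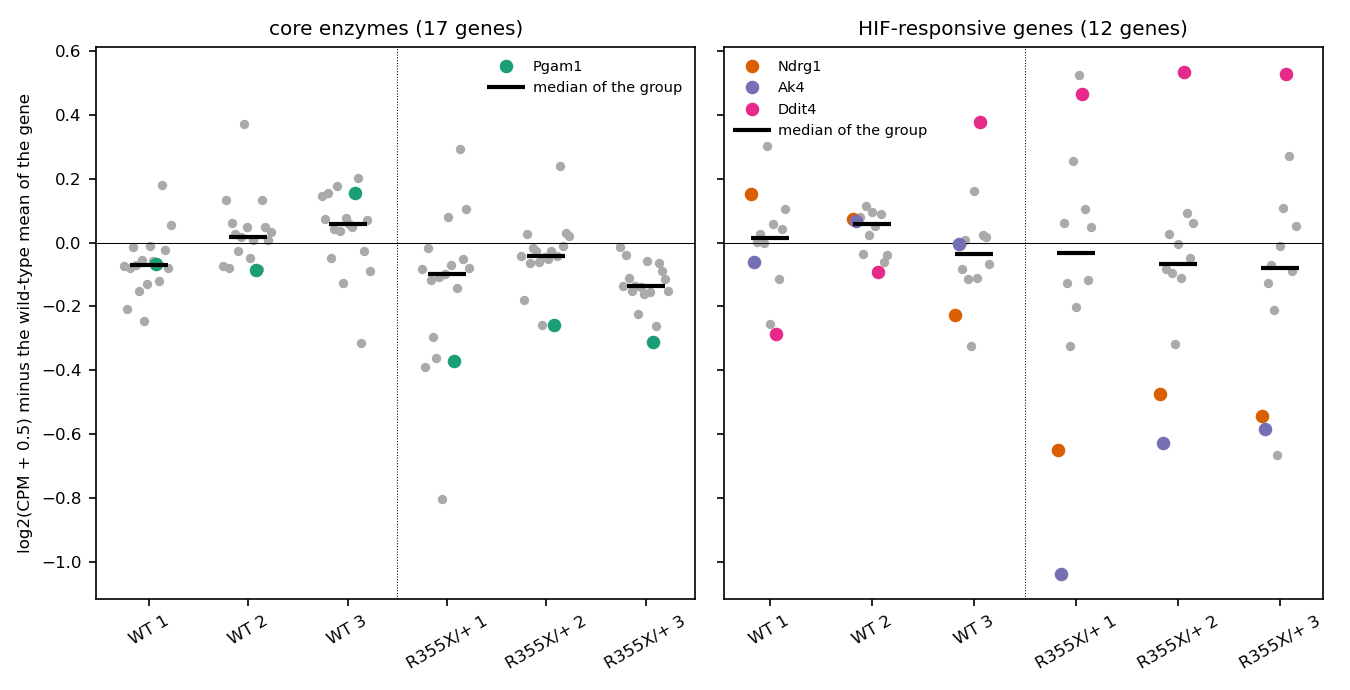
Difference of each gene in each library from its wild-type mean, in log2(CPM + 0.5), for 17 core enzymes and 12 HIF-responsive genes. Points are genes, shifted sideways to separate them, and black bars are medians of the group. Ndrg1 and Ak4 lie below the bulk of the points in all 3 mutant libraries, and the bars of the core enzymes differ between replicates of 1 genotype as well.

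Levels of different genes were compared per length, as CPM per kb of mean transcript length in GENCODE M21. In wild type Gapdh was highest, at 767 ± 28.4 CPM per kb, followed by Ldha at 350 ± 18.4 and Pkm at 201 ± 5.96. Gpi1 came next at 185 ± 17.9 CPM per kb, whose spread reached that of Pkm. Eno1, Tpi1 and Aldoa did not differ beyond their spread, at 139 ± 17.7, 130 ± 10.001 and 129 ± 4.33 CPM per kb. Pgk1 (87.6 ± 3.27) and Ndrg1 (86.0 ± 11.6 CPM per kb) were likewise not separable with this length. Bnip3l followed at 73.2 ± 1.595 CPM per kb, within the spread of Ndrg1 (SD, n = 3 throughout). With the longest transcript as length, Pgk1 was at 69.1, Bnip3l at 29.3 and Ndrg1 at 21.7 CPM per kb. Gpi1 was then at 68.0 CPM per kb, below Aldoa at 86.5 and Tpi1 at 73.7. The order below Pkm therefore depends on the length used, and the SD does not cover this. In the mutant Ndrg1 was at 58.0 ± 3.61 and Bnip3l at 70.5 ± 3.91 CPM per kb of mean transcript length. Ak4 was in the lower part of the order at 11.9 ± 0.545 CPM per kb. Epas1 (0.294 ± 0.0177) and P4ha2 (0.384 ± 0.173 CPM per kb) were the lowest and not separable.

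Isoenzymes of a family can replace each other, so each gene's share of its family's summed CPM per kb was compared over the libraries. In 15 families the share of 1 lead gene was tested with an exact two-sided permutation test, whose smallest possible p with 3 against 3 libraries is 0.1. After Benjamini-Hochberg adjustment over the 15 families, no share could pass 0.05, and 5 reached the smallest adjusted value of 0.3, of which 4 are described here. Ndrg1 made up 72.4%, 70.5% and 67.0% of the Ndrg1, Ndrg2 and Ndrg3 sum in wild type and 57.0%, 56.9% and 55.9% in the mutant, without overlap. This share is computed from the same Ndrg1 counts as above, so it is no separate evidence that Ndrg1 was lower. Beside the lower Ndrg1, this family also had higher levels of Ndrg2, a relative of Ndrg1, at 6.37 ± 0.670 CPM in wild type against 10.3 ± 0.666 CPM in the mutant (SD, n = 3). The log2 fold change of Ndrg2 was 0.69 (SE 0.137), short of the threshold in edgeR (Benjamini-Hochberg adjusted p = 0.0926). Ndrg3 was at 41.7 ± 2.29 and 46.3 ± 4.58 CPM.

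Hif1a made up 80.1% ± 2.50 of the 3 HIF alpha genes in wild type and 74.3% ± 0.862 in the mutant (SD, n = 3). The remainder was mostly Hif3a, whose protein is an alpha subunit that can counter HIF-1, at 11.96 ± 1.28 and 16.5 ± 1.65 CPM (log2 fold change 0.46, Benjamini-Hochberg adjusted p = 0.217 in edgeR, n = 3). Slc2a1 made up 27.9% ± 2.60 of the Slc2a1 and Slc2a3 sum in wild type and 31.2% ± 1.40 in the mutant. Egln1 made up 34.5% ± 0.784 of the 3 HIF prolyl hydroxylases in wild type and 36.6% ± 0.922 in the mutant.

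Shares in the glycolytic families overlapped between genotypes. Ldha held 94.2% ± 0.567 of lactate dehydrogenase in wild type and 94.5% ± 0.343 in the mutant, and Aldoa held 96.9% ± 0.746 and 97.5% ± 0.723 of aldolase. Among hexokinases Hk1 held 44.4% ± 1.94 and 46.5% ± 2.22, Hk3 37.2% ± 3.41 and 36.7% ± 2.98, and Hk2 18.4% ± 2.47 and 16.8% ± 1.29 (SD, n = 3). Pfkl held 52.7% ± 2.86 of phosphofructokinase in wild type and 54.0% ± 2.40 in the mutant. With the longest transcript as length, the lead gene's share moved the same way in all 15 families, but the shares themselves depend on the length. Hk1 then held 29.7% and Hk3 53.0% of hexokinase in wild type, which turns their order.

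**Figure D4:**
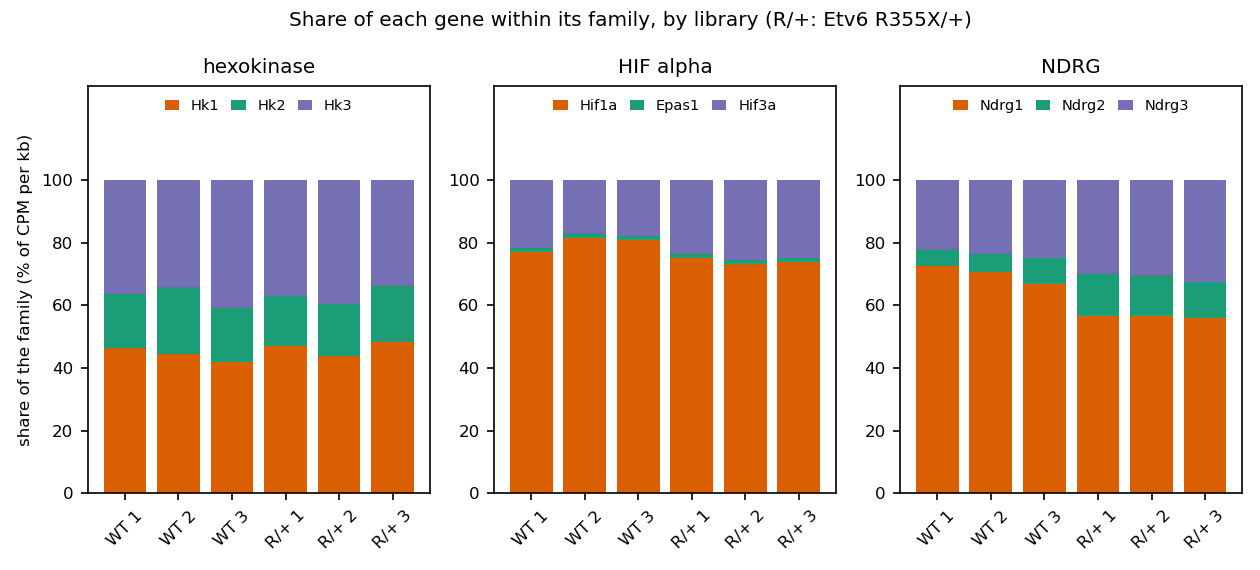
Share of each gene in its family's summed CPM per kb, in percent, for hexokinases, HIF alpha subunits and the Ndrg family, with 1 stacked bar per library (WT for wild type, R/+ for Etv6 R355X/+). The Ndrg1 segment is 67.0% to 72.4% in wild type and 55.9% to 57.0% in the mutant, while the hexokinase segments overlap between genotypes.

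Other genes of these pathways, 139 in 8 lists, gave no call in edgeR's quasi-likelihood test. Of the 115 tested, 14 had an unadjusted p under 0.05 (8 lower, 6 higher), DESeq2 called 5 and limma-voom called 0, and their median log2 fold change was -0.025. Among other isoenzymes of glycolysis, 11 of 14 tested lay below 0 (median -0.15). Adpgk, a glucokinase that uses ADP, measured 75.1, 71.5 and 79.0 CPM in wild type against 58.5, 60.6 and 53.2 CPM in the mutant, without overlap. Its log2 fold change of -0.39 (SE 0.071) came close to the threshold (edgeR quasi-likelihood test, Benjamini-Hochberg adjusted p = 0.0617).

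In the pentose phosphate pathway, which branches from glycolysis to make NADPH and ribose, 9 of 10 genes lay below 0 (median -0.045), 1 of them with an unadjusted p under 0.05 (Prps1, log2 fold change -0.17). Pyruvate dehydrogenase, which feeds pyruvate to the mitochondria, had 6 of 8 genes below 0 (median -0.028), none with an unadjusted p under 0.05. Of 18 tested genes of gluconeogenesis and glycogen, 13 lay below 0 (median -0.077), with the glycogen branching enzyme Gbe1 at 36.6 ± 1.44 and 31.4 ± 1.22 CPM (SD, n = 3). Other sugar and monocarboxylate carriers leaned the other way, with 5 of 13 below 0 (median 0.032).

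Further hypoxia targets showed no common direction, with 17 of 30 tested genes below 0 (median -0.012). Of the 6 with an unadjusted p under 0.05, 3 were lower and 3 higher. Ampd3, an AMP deaminase, measured 10.7, 11.3 and 13.6 CPM in wild type against 19.8, 21.005 and 16.7 CPM in the mutant. All mutant libraries were higher, and the log2 fold change was 0.69 (SE 0.130, Benjamini-Hochberg adjusted p = 0.0716 in edgeR). Hmox1, the heme oxygenase that is also abundant in macrophages, measured 16.03, 16.2 and 11.9 CPM in wild type against 31.7, 25.2 and 17.96 CPM in the mutant (log2 fold change 0.76, adjusted p = 0.189 in edgeR). The summed level of 10 macrophage and dendritic cell genes was 104 to 123 CPM in wild type against 113 to 160 CPM in the mutant. This sum overlapped and was carried largely by Vcam1 and Csf1r. Of the 10 genes, 8 had an unadjusted p under 0.05 in edgeR (1 lower, Siglech at 0.534-fold). C1qa (1.89-fold), C1qc (1.71-fold), Itgax (1.53-fold), Cd68 (1.42-fold) and Adgre1 (1.42-fold) were each higher in every mutant library, as Hmox1 was (1.70-fold). C1qb (1.45-fold) and Mrc1 (1.38-fold) overlapped between genotypes. Siglech, Csf1r (0.905-fold) and Vcam1 (0.950-fold) also overlapped, with negative log2 fold changes. The part of these 10 genes in the Hmox1 values was not tested. Of 13 tested genes that control HIF, 7 lay below 0, and the 2 with an unadjusted p under 0.05, Hif3a and Elob (a subunit of the VHL ubiquitin ligase), were higher in the mutant.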

How the data were processed

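Bulk RNA sequencing was done on sorted LSK cells. According to the labels' protocols, cells were pre-selected for c-Kit with magnetic beads and then sorted, and their total RNA went through a single-primer isothermal amplification that neither marks strand nor selects polyadenylated RNA. The authors deposited expected counts per gene, not scaled for depth. The submitters' processing notes name STAR 2.7, RSEM 1.31, Trim Galore 0.60 and mm10. Which annotation and read filters went into them is not given in the sources used here. RSEM shares out reads between related genes.

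From these values, expected counts were rounded, filtered with filterByExpr (20646 genes kept), scaled by TMM and compared between 3 and 3 libraries with the two-sided quasi-likelihood test of edgeR 4.0.16 in R 4.3.3, with genotype as the one term. P-values were Benjamini-Hochberg adjusted over all tested genes (threshold 0.05). The SE is the size of the fold change divided by the square root of F. Intervals are normal approximations (1.96 SE), narrower than the test implies. A total of 92 spike-in rows at 0 were left out, and 55394 of 55573 identifiers matched GENCODE M21 without version. The members and lists were chosen with earlier results of these data known. All 40 members are named. Of other lists, isoenzymes and at most the 2 genes with the smallest p were named. On simulated data of this comparison (5 draws, at least 20260 genes each), 37.6% of genes changed by 1.5-fold and 60.3% by 2-fold were called, and 9.96% of calls were false. Alternatives were DESeq2 1.42.0, limma-voom (limma 3.58.1), other scalings and filters, a replicate block, and leaving out libraries. The share of 1 family is not reported here.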

Additional observations from a re-analysis of the deposited data

How the results depend on the processing

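Over 17 alternatives, 632 of 678 member values kept their direction and side of the threshold, 15 lost a call and 3 gained one. Genes called over the whole table, 55 in the main analysis, were 329 with DESeq2, 527 without a filter beyond 1 count, 32 with a replicate block, and 16 to 67 without single libraries. Members called, 2 in the main analysis, were 3 with DESeq2, 4 without the filter, 1 with limma-voom (Ndrg1 adjusted p = 0.0618), 1 with at least 1 CPM in 3 libraries (Ndrg1 adjusted p = 0.0530), 0 with the block (Ndrg1 -0.56, adjusted p = 0.114; Ak4 -0.77, adjusted p = 0.0729), 0 to 1 without single libraries, and 1 with mutant replicate 1 and wild-type replicate 3 both left out. The cause was not tested. Deviations of same-numbered libraries correlated at -0.020, -0.025 and -0.085, against -0.043 to 0.065 for differently numbered ones. These correlations cannot show whether the libraries were collected or processed in pairs, since only a large shared effect would appear in them. Etv6 passed without the filter (-0.30, adjusted p = 0.0111). The group medians kept their sign, from -0.12 to -0.065 for core enzymes and from -0.10 to -0.041 for HIF-responsive genes without single libraries.

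A sign change occurred 28 times in 14 members, 0 of them called. With library size alone, which moved the median of all genes to -0.034, Ldha was at -0.027 and Egln1 at -0.020. With mutant replicate 1 and wild-type replicate 3 both left out, values were 0.045 for Hk1, 0.073 for Gpi1, 0.0095 for Pfkp, -0.083 for Eno2, -0.0030 for Ldha, 0.039 for Slc16a1, 0.067 for Vegfa and -0.073 for Ankrd37. Without single libraries, ranges were -0.089 to 0.026 for Hk1, -0.054 to 0.069 for Gpi1, -0.055 to 0.021 for Gapdh, -0.040 to 0.068 for Ldha, -0.16 to 0.0072 for Pfkfb3, -0.25 to 0.071 for Slc16a1, -0.14 to 0.19 for Slc16a3, -0.085 to 0.012 for Hif1a, -0.31 to 0.049 for Epas1, -0.0021 to 0.029 for Egln1, -0.21 to 0.00055 for Vegfa and -0.0016 to 0.45 for Ankrd37. Depth limits Eno2, Epas1, P4ha2 and Ankrd37, each averaging under 2 CPM.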
